A study of Mus musculus with 6 samples.

Results

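The genes described here carry sphingosine-1-phosphate (S1P) and lysophosphatidate (LPA) signalling in lung endothelial cells (EC), the cells that line blood vessels. They are a set of genes taken by symbol, put together with earlier results of these data known: the receptors S1pr1 and S1pr3, the kinases Sphk1 and Sphk2, the lyase Sgpl1, the exporter Spns2 and the lipid phosphate phosphatases Ppap2a and Ppap2b, now called Plpp1 and Plpp3. Of these 8 genes, 7 had a row among the 12623 genes of the expression table and all 7 passed the filter on low values that left 12458 genes. Sphk1 was not analysed here. The study asked which transcripts change while EC pass from vessel growth to quiescence, a resting state in which they keep the vessel wall intact without dividing or sprouting.

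RNA-seq was performed on EC sorted from lungs of C57BL/6N mice, with 3 libraries of infant mice in the second week after birth and 3 libraries of young adult mice in about the third month of life. No treatment or genetic change was applied to either group. Sorted cells were alive, carried CD31 and CD34 and lacked markers of leukocytes, erythroid cells and lymphatic EC. The methods do not say whether a library pooled several animals, and the p-values measure the spread between these libraries only. Expression was given as RPKM (reads mapped to a transcript, divided by its length in kilobases and per 1000000 mapped reads of the library), which is a level per length and can be compared between genes. How many reads stand behind each library is not known here.

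S1P is a lipid made inside cells by the sphingosine kinases and carried out of EC by Spns2. It is broken down irreversibly by the lyase Sgpl1 and loses its phosphate to intracellular phosphatases or, at the cell surface, to lipid phosphate phosphatases, which also act on LPA. S1pr1 couples to Gi and is known for keeping EC junctions closed and sprouting in check, whereas S1pr3 couples to further classes of G protein. LPA is produced outside cells by autotaxin, the product of Enpp2, and acts through receptors of its own.

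Some features of the libraries bear on every comparison below. Transcripts of the Y-linked genes Ddx3y, Eif2s3y, Uty and Kdm5d were found in every infant library, with Ddx3y at 16.5 to 21.9 RPKM, and were listed at 0 in every young adult library, although the methods name female mice, so sex and age cannot be told apart. Infant replicate 2 stood apart, with a correlation across genes of 0.964 with each of the other infant libraries, against 0.987 between those and 0.963 with young adult replicate 3. Markers of other cells differed with age as well. The summed RPKM of 10 fibroblast markers ran from 267.2 to 1156.9 in infant and from 11.3 to 24.0 in young adult libraries, and 9 of the 10 were lower at the threshold used here. For 10 mural cell markers the sums were 79.6 to 249.0 and 12.8 to 18.2, again with 9 lower and with Cspg4 at 0 in 1 young adult library. The 5 erythroid markers with a row summed to 5014.7 to 46626.7 and 486.2 to 816.2, and 9 epithelial markers to 6486.6 to 11342.4 and 1834.3 to 8367.5, with overlap. The epithelial sum was carried mostly by Sftpc and Scgb1a1, and of the 9 markers 3 were lower (Cdh1, Krt18 and Ager) and 1 higher (Hopx) at that threshold. The 12 endothelial markers were present in all libraries, at sums of 3234.4 to 4823.0 and 5384.6 to 5779.5, with Tek and Vwf higher in young adult EC. Transcripts of Lyve1, whose protein the sort selected against, were at 68.6 to 171.4 RPKM in infant libraries and called higher at 252.9 to 396.4 RPKM in young adult libraries (1.65, limma adjusted p = 0.0132). Lyve1 carried most of the sums of 5 lymphatic markers (90.2 to 193.5 and 269.0 to 411.5). The other 4 had negative log2 fold changes, from -0.27 (Ccl21a) to -0.61 (Mmrn1, limma adjusted p = 0.0390), and none of them was called. In such sorted populations, fewer cells of a type and less RNA per cell cannot be told apart.

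The stretches in front of S1pr3 and Ppap2b are shown because these are the members that passed the adjusted p between the age groups and have an entry in the promoter table. Both had lower transcript levels in young adult EC. They are the 250 bases before the gene's start in RefSeq (GRCm38.p6), written 5′ to 3′ on the strand of the gene, and capitals mark CACCC or its reverse complement GGGTG, the core letters that Krüppel-like factors are known to bind, searched on both strands. The S1pr3 stretch is chr13:51408368-51408617 (plus strand) and the Ppap2b stretch is chr4:105157097-105157346 (plus strand).
S1pr3: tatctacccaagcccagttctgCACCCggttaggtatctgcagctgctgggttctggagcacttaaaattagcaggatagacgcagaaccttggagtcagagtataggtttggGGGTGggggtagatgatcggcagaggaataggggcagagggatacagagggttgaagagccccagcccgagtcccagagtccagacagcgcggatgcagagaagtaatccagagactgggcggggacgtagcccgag
Ppap2b: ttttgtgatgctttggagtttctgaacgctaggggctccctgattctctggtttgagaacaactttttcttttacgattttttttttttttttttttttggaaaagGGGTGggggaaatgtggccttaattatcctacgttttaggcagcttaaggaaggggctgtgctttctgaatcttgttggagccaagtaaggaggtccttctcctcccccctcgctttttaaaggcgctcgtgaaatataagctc
The letters occurred in front of S1pr3 at -228 and -137 and in front of Ppap2b at -144, counted in bases from the gene's start. Of 32851 mouse promoter stretches of this length, 52% held the letters, so their presence does not set these genes apart, and a match is not evidence of binding. The promoter table held 6 of the 8 members, without S1pr1 and Ppap2a.

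Transcript levels differed widely among the members. S1pr1 had the highest mean in both groups, at 263.4 ± 117.4 RPKM in the infant and 487.7 ± 24.0 RPKM in young adult EC (SD, n = 3 each). By these means it ranked 107th and 55th of 12623 genes. Ppap2a followed with 184.4 ± 72.8 and 249.8 ± 18.0 RPKM, and Ppap2b with 75.1 ± 8.31 and 52.9 ± 6.59 RPKM. Spns2 reached 16.0 ± 2.30 and 21.0 ± 2.75 RPKM. The remaining members were much lower: S1pr3 at 11.3 ± 3.43 and 5.13 ± 1.51 RPKM, Sgpl1 at 6.27 ± 2.39 and 3.43 ± 0.289 RPKM, and Sphk2 at 4.97 ± 0.416 and 4.10 ± 0.361 RPKM. Neighbours in this order whose libraries overlapped were S1pr1 and Ppap2a, Spns2 and S1pr3, and Sgpl1 and Sphk2 in infant EC, and only S1pr3 and Sphk2 in young adult EC. The lowest place was held by Sphk2 in infant EC and by Sgpl1 in young adult EC.

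**Figure D1:**
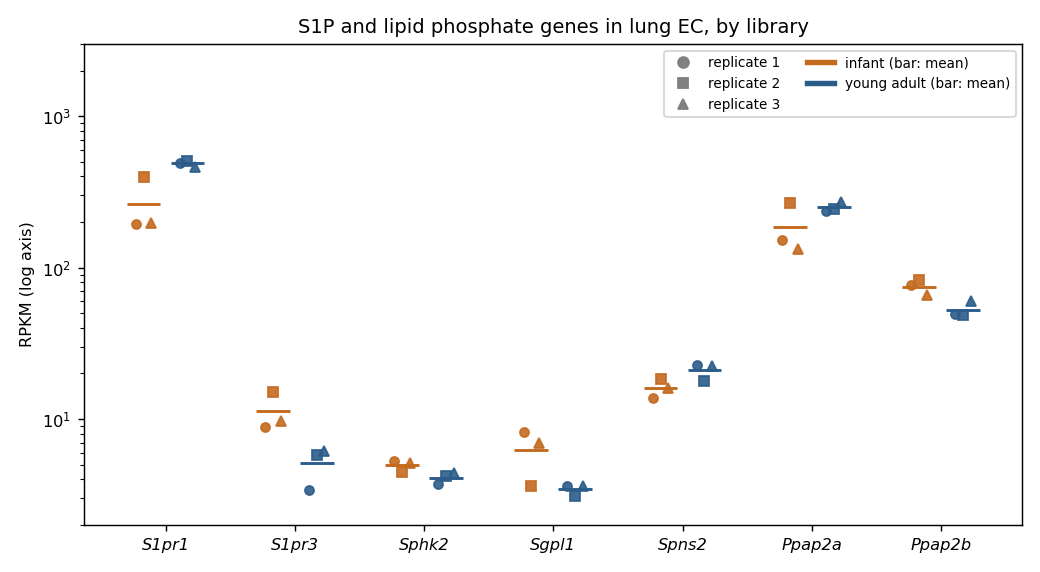
RPKM of the 7 members on a log axis in each infant (orange) and young adult (blue) library, with symbols for replicates 1 to 3 and a bar at each group's mean. S1pr1 was highest in both groups, and the age groups did not overlap for S1pr1, S1pr3, Sphk2 and Ppap2b.

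Across the comparison of age groups, 1 member was higher (S1pr1) and 1 was lower (S1pr3) in young adult EC at an adjusted p under 0.05 and a log2 fold change over 0.81 in either direction, the fold threshold of the study (limma on log2(RPKM + 1) with Benjamini-Hochberg adjustment over all genes tested). Genes past both thresholds are termed called. These 2 of 7 members (28.6%) stand against 11.4% of all genes called, 3.33% higher and 8.1% lower. Without the fold threshold, 3 members passed the adjusted p (S1pr1 higher, S1pr3 and Ppap2b lower), where 25.5% of all genes did, 9.27% higher and 16.2% lower. The groups did not overlap in 4 members, against 43.4% of all genes. The median log2 fold change was -0.23 over the members and -0.07 over all genes tested. With 7 members these shares are a description and do not set the members apart from other genes.

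The receptors moved in opposite directions. S1pr1 (transcript NM_007901, chr3:115710433-115715055, the whole gene with introns in RefSeq on GRCm38.p6, as for the genes that follow) was at 192.9, 399.0 and 198.4 RPKM in the infant libraries (replicates 1 to 3) and at 494.5, 507.6 and 461.0 RPKM in young adult replicates 1 to 3. All young adult libraries lay above all infant libraries, and infant replicate 2 was nearer to the young adult libraries than to the other infant ones. The log2 fold change was 0.97 ± 0.28 (SE, 95% CI 0.33 to 1.61, limma adjusted p = 0.0385), and the ratio of mean RPKM was 1.85. Of 6 fits that each left out 1 library, S1pr1 was called in 1, the fit without infant replicate 2 (log2 fold change 1.31, adjusted p = 0.000131). In the other 5 fits the log2 fold change ran from 0.79 to 1.01 and the adjusted p from 0.0873 to 0.123. Quantile normalization brought the log2 fold change to 0.80, just under the fold threshold.

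S1pr3 (NM_010101, chr13:51408618-51422797), the gene behind the first stretch shown above, was at 8.9, 15.2 and 9.7 RPKM in the infant and 3.4, 5.8 and 6.2 RPKM in young adult replicates. The groups did not overlap, and infant replicate 2 was the highest of all. That library had the lowest fibroblast sum of the infant group (267.2 RPKM, against 1156.9 and 756.1), a sum carried mostly by 3 collagen genes, and the lowest mural sum (79.6 RPKM, against 241.7 and 249.0). The fibroblast markers Dcn (7.6, 19.9 and 8.0 RPKM in infant replicates 1 to 3) and Lum (4.1, 14.4 and 4.7 RPKM) were instead highest in that library, as S1pr3 was. All other fibroblast markers were lowest in infant replicate 2 within the infant group. Beside the collagen genes these included Dpt (23.1, 16.8 and 32.1 RPKM) and Mfap5 (21.7, 11.6 and 26.1 RPKM). Among the mural markers, Higd1b (9.7, 11.4 and 15.8 RPKM) and Notch3 (1.1, 1.2 and 1.6 RPKM) were not lowest in that library, and all others were. The part of these markers in the S1pr3 difference was not tested. The log2 fold change was -1.0 ± 0.24 (SE, 95% CI -1.56 to -0.44, limma adjusted p = 0.0230), and mean RPKM was 2.19 times as high in infant EC. S1pr3 was called in 2 of 6 fits without 1 library, those without infant replicate 1 or young adult replicate 3. The call was lost without infant replicate 2 (log2 fold change -0.78, adjusted p = 0.0241), infant replicate 3 (-1.08, 0.0509), young adult replicate 1 (-0.77, 0.0693) or young adult replicate 2 (-1.09, 0.0649), and the direction held in all 6.

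The balance between these receptors was compared within each library, which takes out the scaling of the library. The log2 ratio of S1pr1 to S1pr3, computed on RPKM + 1, was 4.29, 4.63 and 4.22 in infant and 6.82, 6.22 and 6.00 in young adult replicates. Every young adult ratio was above every infant ratio, infant replicate 2 included. This order and the p-value below follow from the single genes. S1pr1 was higher and S1pr3 lower in every young adult library than in every infant one. The ratio is therefore no separate support. The means were 4.38 ± 0.22 and 6.35 ± 0.42 (SD, n = 3 each), a difference of 1.97 on the log2 scale or 3.91-fold. The exact two-sided permutation test gave p = 0.1, the smallest that 3 against 3 libraries allow, so this design cannot reach 0.05 for a single ratio. Leaving out 1 library at a time gave differences between 1.74 and 2.14. S1pr1 made up 90.9% to 93.4% of the summed RPKM of the S1P receptors in infant libraries and 94.9% to 96.6% in young adult libraries. S1pr3 made up 3.56% to 4.45% and 0.664% to 1.28%.

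The other S1P receptors with a row also passed the adjusted p but not the fold threshold. S1pr2, which is known to oppose migration, was at 1.4, 0.8 and 1.2 RPKM in the infant and 0.6, 0.2 and 0.4 RPKM in young adult replicates (log2 fold change -0.61 ± 0.18, adjusted p = 0.0416). These levels are low and were deposited in steps of 0.1 RPKM. S1pr4, best known from lymphoid cells, was at 8.8, 12.2 and 8.9 RPKM and at 13.4, 14.5 and 18.4 RPKM (0.59 ± 0.16, adjusted p = 0.0336). Neither gene's groups overlapped. The sum of 8 leukocyte markers was 311.3 to 505.6 RPKM in the infant and 139.0 to 543.7 RPKM in young adult libraries, and its part in the S1pr4 values was not tested. Leaving out 1 library, each of these receptors passed the adjusted p in 1 of 6 fits, that without infant replicate 2. S1pr2 was past both thresholds with a pseudocount of 0.1 (-1.35, adjusted p = 0.0432), and mean RPKM was 2.83 times as high in infant EC. S1pr5 was not analysed here.

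**Figure D2:**
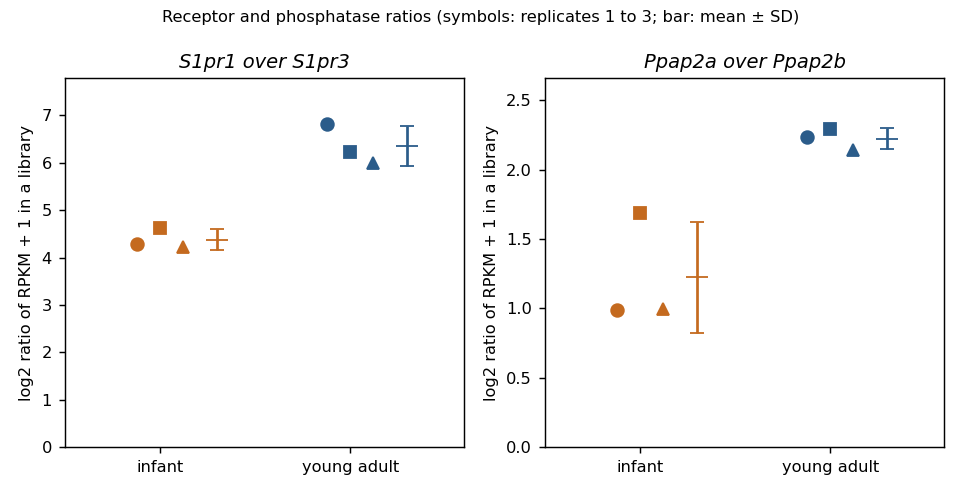
Log2 ratio of RPKM + 1 in each library for S1pr1 over S1pr3 (left) and Ppap2a over Ppap2b (right), with symbols for replicates 1 to 3 and the mean ± SD beside them. In both panels the 3 young adult libraries lie above the 3 infant libraries.

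Among the enzymes that make and destroy S1P, no member was called. Sphk2 (NM_001172561, chr7:45709463-45718002), the kinase isoenzyme also found in the nucleus, was at 5.3, 4.5 and 5.1 RPKM in the infant and 3.7, 4.2 and 4.4 RPKM in young adult replicates. The groups did not overlap but lay close together, with a log2 fold change of -0.23 ± 0.11 (95% CI -0.47 to 0.02, limma adjusted p = 0.153). It had 3 transcript rows. One of them carried the same values as the row used, and the other ran from 4.1 to 4.8 RPKM in the infant and from 3.3 to 3.9 RPKM in young adult libraries.

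Sgpl1 (NM_009163, chr10:61098642-61147684), the S1P lyase, was at 8.2, 3.6 and 7.0 RPKM in the infant and 3.6, 3.1 and 3.6 RPKM in young adult replicates. Infant replicate 2 lay at the young adult level, so the groups overlapped, while the other infant libraries were about as high as each other. The log2 fold change was -0.65 ± 0.24 (95% CI -1.21 to -0.10, limma adjusted p = 0.0820). Without infant replicate 2 it was -0.95 at an adjusted p of 0.000802, past the threshold. The infant libraries with the higher Sgpl1 level were those with the higher fibroblast and mural sums, although not with the higher Dcn and Lum levels, and the part of those cells in it was not tested.

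The S1P phosphatases, which act inside the cell, were at low levels. Sgpp1 was at 2.1, 3.1 and 2.2 RPKM in the infant and 2.2, 2.1 and 2.7 RPKM in young adult replicates (log2 fold change -0.05, adjusted p = 0.829), and its groups overlapped. Sgpp2 was at 4.3, 4.8 and 3.4 RPKM and at 1.0, 2.1 and 3.0 RPKM. It was called lower (-0.82 ± 0.25, limma adjusted p = 0.0455), with no overlap but with 0.4 RPKM between the nearest libraries. The call was made in 1 of 6 fits without 1 library, the fit without young adult replicate 3, and in the other 5 the log2 fold change ran from -0.93 to -0.54 with adjusted p from 0.0705 to 0.126.

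The exporter Spns2 (NM_153060, chr11:72451638-72489976) was at 13.7, 18.3 and 16.0 RPKM in the infant and 22.7, 17.8 and 22.4 RPKM in young adult replicates. Young adult replicate 2 fell within the infant range. The log2 fold change was 0.37 ± 0.14 (95% CI 0.05 to 0.69, limma adjusted p = 0.0865). Abcc1, a transporter also able to carry S1P, was at 5.7 to 7.8 RPKM in the infant and 4.6 to 5.7 RPKM in young adult libraries (-0.33 ± 0.14, adjusted p = 0.107). Neither passed the threshold. Mfsd2b and Apom were not analysed here.

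The lipid phosphate phosphatases Ppap2a and Ppap2b had log2 fold changes of opposite sign, of which that of Ppap2b passed the adjusted p. Ppap2a (NM_008903, chr13:112800777-112867894) was at 153.1, 267.7 and 132.5 RPKM in the infant and 236.5, 242.7 and 270.3 RPKM in young adult replicates. Infant replicate 2 lay among the young adult libraries, and the log2 fold change of 0.50 ± 0.25 (95% CI -0.08 to 1.08, limma adjusted p = 0.173) did not pass. Without infant replicate 2 it was 0.80 at an adjusted p of 0.00199, just under the fold threshold. A further transcript row of Ppap2a was lower by a nearly constant factor, 0.861 to 0.893 of the row used in each library.

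Ppap2b (NM_080555, chr4:105157347-105232767), which is needed for vessel formation in the mouse embryo, was at 76.6, 82.5 and 66.1 RPKM in the infant and 49.4, 48.8 and 60.5 RPKM in young adult replicates. All infant libraries were above all young adult ones, infant replicate 2 included. The log2 fold change was -0.50 ± 0.13 (95% CI -0.80 to -0.19, limma adjusted p = 0.0299), under the fold threshold and therefore not called. Its adjusted p was under 0.05 in 3 of 6 fits without 1 library and between 0.0894 and 0.115 in those without infant replicate 1, young adult replicate 1 or young adult replicate 2.

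Within a library the log2 ratio of Ppap2a to Ppap2b was 0.99, 1.69 and 0.99 in infant and 2.24, 2.29 and 2.14 in young adult replicates. The young adult ratios were close together and above every infant ratio. The means were 1.22 ± 0.40 and 2.22 ± 0.08 (SD, n = 3 each), a difference of 1.0 on the log2 scale or 2.0-fold, with an exact two-sided permutation p of 0.1, again the smallest possible. This and the receptor ratio were the 2 ratios tested, and the Benjamini-Hochberg adjusted value was 0.1 for each. Without 1 library the difference ran from 0.88 to 1.23. The 3 other lipid phosphate phosphatase genes with a row, Ppap2c, Ppapdc1b and Ppapdc2, named after their values were seen, did not pass, with log2 fold changes from -0.06 to 0.19 and levels of 0.9 to 10.6 RPKM.

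**Figure D3:**
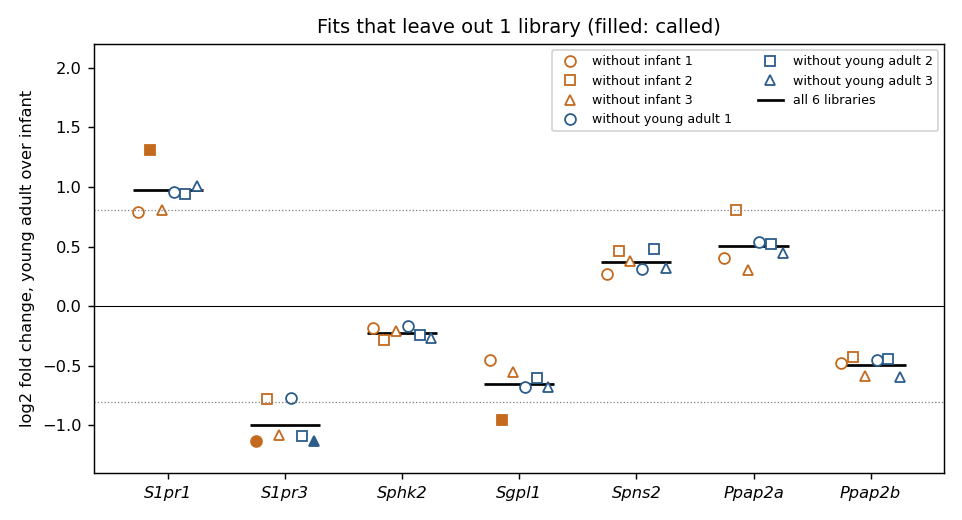
Log2 fold change (young adult over infant, log2(RPKM + 1) scale) of the 7 members in the 6 fits that each leave out 1 library, filled where called, with a black bar for all 6 libraries and dotted lines at the fold threshold of 0.81 on the log2 scale. S1pr1 and Sgpl1 were called without infant replicate 2 (filled orange squares), and no member changed direction.

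Because endothelial markers were also higher in young adult libraries, the members were set against them, an addition made after the values had been seen. For each library, the log2 of RPKM + 1 was taken relative to the geometric mean of RPKM + 1 of the 12 endothelial markers. On this scale S1pr1 was at 0.10, 0.76 and 0.23 in infant and 0.83, 0.78 and 0.67 in young adult replicates. The groups then overlapped through infant replicate 2, and the difference was 0.40, against 0.97 as deposited (exact two-sided permutation p = 0.2). Without infant replicate 2 it was 0.59. S1pr3 was lower by a log2 difference of -1.57, Sgpl1 of -1.23, Ppap2b of -1.07 and Sphk2 of -0.80, each with no overlap between the groups (exact p = 0.1 each). As deposited, the log2 fold changes were -1.0, -0.65, -0.50 and -0.23 in the same order. For Spns2 the difference was -0.20 (exact p = 0.4) and for Ppap2a -0.07 (exact p = 0.8), with overlapping groups. The Benjamini-Hochberg adjusted values over these 7 tests were 0.175 for the 4 members at the smallest p and 0.28 for S1pr1. On this scale the Spns2 difference had the opposite sign to the deposited one, also without infant replicate 2 (-0.25). That of Ppap2a did so only with infant replicate 2, since without it the difference was 0.09. The other 5 members kept their direction with and without that library. Of the 12 markers behind this scale, 10 had positive and 2 negative log2 fold changes. Vwf (2.03) and Tek (1.25) were the ones called, against -0.01 for Kdr and -0.02 for Erg. Each difference on this scale is the member's log2 fold change less the mean of the 12 marker log2 fold changes. Every member is thus lowered by the same amount, and Vwf and Tek raise that amount. With all libraries, the negative signs of Spns2 and Ppap2a depend on those markers. Part of the smaller S1pr1 difference and of the larger falls of S1pr3, Sgpl1, Ppap2b and Sphk2 does so too. The scale was not computed without Vwf and Tek, so no values are given for that case.

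**Figure D4:**
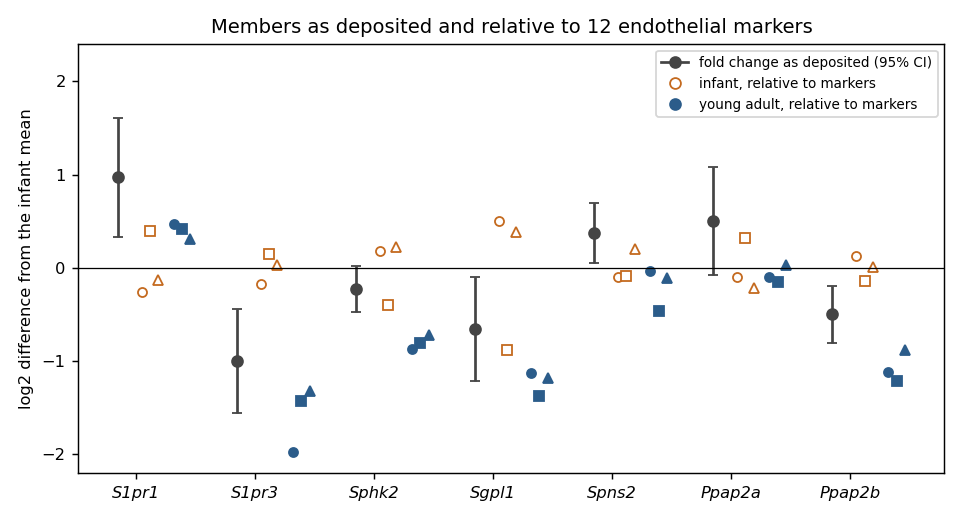
Log2 difference from the infant mean for the 7 members. Black points give the fold change as deposited with its 95% CI, and symbols give each infant (open orange) and young adult (filled blue) library relative to the 12 endothelial markers. Relative to the markers, S1pr3, Sphk2, Sgpl1 and Ppap2b lay lower in all young adult libraries, and the S1pr1 value of infant replicate 2 lay among the young adult libraries.

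The wider list of S1P, LPA and sphingolipid genes held 76 genes including the members, of which 62 were tested. In young adult EC, 2 were called higher (S1pr1 and Acer2) and 8 lower (S1pr3, Sgpp2, Lpar1, Lpar4, Degs2, Cers6, Sgms2 and Gnai1), together 16.1% against 11.4% of all genes. At an adjusted p under 0.05 alone, 12 were higher and 11 lower, 37.1% of the list against 25.5% of all genes. The median log2 fold change was 0.06. The groups did not overlap in 32 of the 62 genes (51.6% against 43.4% of all genes).

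Of the 3 LPA receptors with a row, 2 were called lower in young adult EC, where 8.1% of all genes were. Lpar1, known from fibroblasts and other mesenchymal cells, was at 15.4, 3.8 and 13.7 RPKM in the infant and 0.2, 0.4 and 0.4 RPKM in young adult replicates. Its log2 fold change was -2.98 ± 0.42 (limma adjusted p = 0.00407), and it was called in all 6 fits without 1 library. Infant replicate 2, with the lowest fibroblast sum, had the lowest infant level of Lpar1. The fibroblast markers were not of one order across the infant libraries. Dcn and Lum were highest in infant replicate 2. All others of the list were lowest in it, among them Pdgfra at 87.2, 2.6 and 66.8 RPKM. These markers were chosen for mention after their values were seen. The part of fibroblasts in the Lpar1 difference was not tested.

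Lpar4, a receptor with a known role in vessel development, was at 2.3, 1.6 and 2.3 RPKM in the infant and 0.5, 0.4 and 0.5 RPKM in young adult replicates (-1.06 ± 0.14, limma adjusted p = 0.00363). Lpar4 was called in all 6 fits without 1 library, but not with a pseudocount of 5 (-0.37) or after quantile normalization (-0.71). Lpar6 was the most abundant LPA receptor per length, at 41.6, 44.5 and 42.2 RPKM and at 43.8, 35.4 and 36.9 RPKM, with overlapping groups (-0.15 ± 0.11, 95% CI -0.40 to 0.11, adjusted p = 0.349). In young adult EC Lpar6 was thus the only LPA receptor with a row above 1 RPKM. Lpar2, Lpar3 and Lpar5 were not analysed here.

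Genes of LPA production gave no call. Enpp2, which encodes autotaxin, was at 76.0, 142.2 and 82.8 RPKM in the infant and 53.6, 66.9 and 62.5 RPKM in young adult replicates. The groups did not overlap, infant replicate 2 was the highest, and the log2 fold change was -0.66 ± 0.23 (limma adjusted p = 0.0727). The phospholipases D had log2 fold changes of opposite sign, with Pld1 at 4.5 to 5.9 RPKM in the infant and 3.3 to 4.2 RPKM in young adult libraries (-0.40 ± 0.13, adjusted p = 0.0508) and Pld2 at 3.6 RPKM in each infant library and 4.5 to 5.3 RPKM in young adult libraries (0.36 ± 0.10, adjusted p = 0.0317, passing in 1 of 6 fits without 1 library). Agk, a mitochondrial acylglycerol kinase, was at 10.5 to 12.1 and 13 to 14.3 RPKM (0.27 ± 0.09, adjusted p = 0.0754). Liph, a phospholipase, was at most 1.2 RPKM (-0.29, adjusted p = 0.292). Pla1a was not analysed here.

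Ceramidases release sphingosine, the substrate of the sphingosine kinases, from ceramide, and the 3 with a row were higher in young adult EC at an adjusted p under 0.05, where 9.27% of all genes were. Acer2, the Golgi ceramidase, was at 105.4, 144.3 and 88.7 RPKM in the infant and 317.4, 303.6 and 214.9 RPKM in young adult replicates. The groups were well apart, with a log2 fold change of 1.31 ± 0.22 (limma adjusted p = 0.00728) and a ratio of mean RPKM of 2.47, and the call was kept in all 6 fits without 1 library. Acer3 (0.70 ± 0.13, adjusted p = 0.0114) and the lysosomal Asah1 (0.45 ± 0.12, adjusted p = 0.0341) stayed under the fold threshold, and both were named after their values were seen. Without infant replicate 2 Acer3 was called (0.83, adjusted p = 0.000944). Asah1 passed the adjusted p in 1 of 6 fits without 1 library, that same fit, with values of 0.0742 to 0.117 in the others, and its adjusted p was 0.0524 after quantile normalization.

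Upstream of these, 12 genes of sphingoid base and ceramide synthesis were tested, of which 5 were higher and 2 lower at an adjusted p under 0.05 (9.27% and 16.2% of all genes), and only the lower ones were called. The higher ones, named after their values were seen, included the serine palmitoyltransferase subunits Sptlc1 (log2 fold change 0.46, adjusted p = 0.0152) and Sptlc2 (0.48, adjusted p = 0.0241). Kdsr, the reductase of the next step, was at 11.2, 13.9 and 11.3 RPKM in the infant and 21.8, 20.3 and 19.6 RPKM in young adult replicates (0.72 ± 0.11, adjusted p = 0.00506), and was called without infant replicate 2 (0.81). The ceramide synthase Cers4 (0.47, adjusted p = 0.0304) and Ormdl1 (0.39, adjusted p = 0.0327), a regulator of the first enzyme, made up the rest. Over the 6 fits without 1 library, Kdsr passed the adjusted p in 6, Sptlc1 and Ormdl1 in 2 each, and Sptlc2 and Cers4 in 1 each.

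The 2 called lower were at low levels. The desaturase Degs2 was at 2.4, 2.6 and 3.3 RPKM in the infant and 0.9, 0.9 and 0.7 RPKM in young adult replicates (-1.03 ± 0.14, limma adjusted p = 0.00312), and it was called in all 6 fits without 1 library. The ceramide synthase Cers6 was at 1.6, 0.4 and 1.6 RPKM in the infant libraries and listed at 0, 0 and 0.1 RPKM in young adult ones (adjusted p = 0.0245). Among 8 genes of ceramide conversion, the sphingomyelin synthase Sgms2 was the only one called, at 2.4, 0.6 and 2.2 RPKM and at 0.1, 0.1 and 0.3 RPKM (-1.16 ± 0.29, adjusted p = 0.0249). The more abundant sphingomyelin synthase Sgms1, named after its values were seen, was at 7.7, 27.4 and 8.5 RPKM in the infant libraries and at 44.1, 36.9 and 19.0 RPKM in the young adult ones. Infant replicate 2 lay within the young adult range, and the log2 fold change of 1.29 ± 0.48 did not pass (adjusted p = 0.0850), while without that library Sgms1 was called (1.84, adjusted p = 0.00296). For Cers6 and Sgms2, infant replicate 2 was lowest in its group, as for the fibroblast sum, and both were called in 1 of 6 fits without 1 library, the fit without infant replicate 2 (-1.33 and -1.50). In the other 5 fits the adjusted p ran from 0.0590 to 0.0938 for Cers6 and from 0.0549 to 0.0915 for Sgms2. The part of fibroblasts in these values was not tested.

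Of 16 G proteins and receptor regulators, 1 was called (6.25%, against 11.4% of all genes). Gnai1, a subunit of the Gi class through which S1pr1 acts, was at 3.2, 2.4 and 3.2 RPKM in the infant and 1.0, 0.9 and 1.4 RPKM in young adult replicates (-0.91 ± 0.15, limma adjusted p = 0.00645), and it was called in all 6 fits without 1 library. The more abundant Gi subunits did not pass, with Gnai2 at 83.0 to 109.8 RPKM (adjusted p = 0.361) and Gnai3 at 24.1 to 30.3 RPKM (adjusted p = 0.166) over the 6 libraries. The arrestins, which take activated receptors from the membrane, had log2 fold changes of opposite sign. Arrb1 was at 17.2 to 19.4 RPKM in the infant and 25 to 28.5 RPKM in young adult libraries (0.54 ± 0.10, adjusted p = 0.00929), and Arrb2 was at 3.8 to 4.7 and 2.6 to 3.3 RPKM (-0.40 ± 0.12, adjusted p = 0.0421), both under the fold threshold. Arrb1 passed the adjusted p in 6 of 6 fits without 1 library and Arrb2 in 0, with values of 0.0548 to 0.125. The Gnai2, Gnai3 and arrestin genes were named after their values were seen.

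**Figure D5:**
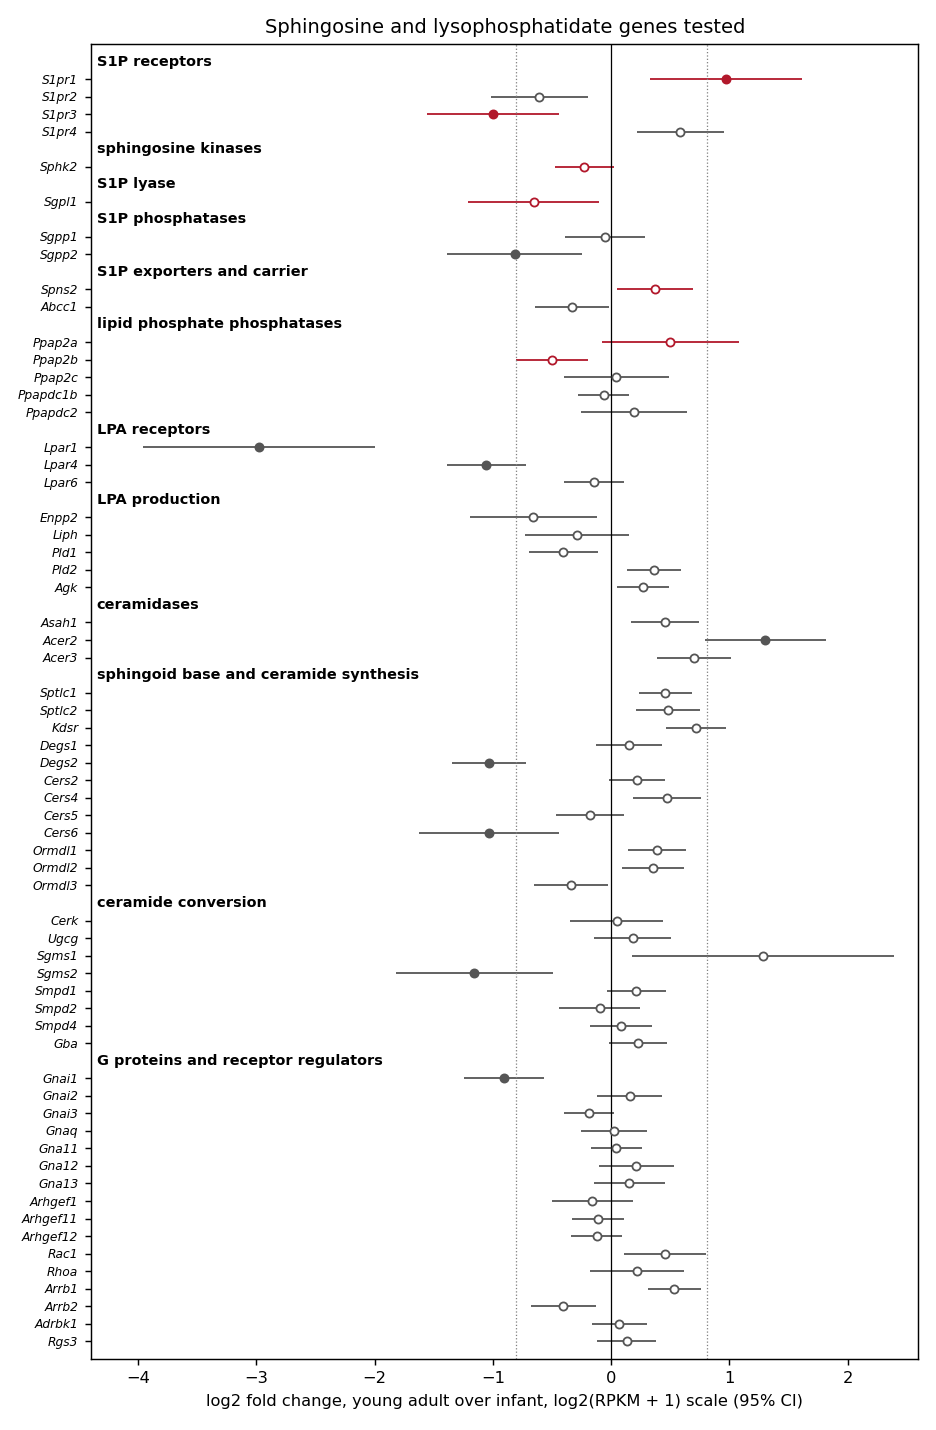
Log2 fold change (young adult over infant, log2(RPKM + 1) scale) with its 95% CI for the 62 genes tested, by role, with members in red, called genes filled and dotted lines at the fold threshold of 0.81 on the log2 scale. Filled points are S1pr1 and Acer2 on the right and S1pr3, Sgpp2, Lpar1, Lpar4, Degs2, Cers6, Sgms2 and Gnai1 on the left.

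The genes nearest in profile were sought for the 2 members with the largest absolute log2 fold change, by the root mean square difference of log2(RPKM + 1), each centred on its mean over the 6 libraries, among 6984 genes that averaged at least 5 RPKM. For S1pr1 they were Cd36 (difference 0.09), a fatty acid receptor, Serinc3 (0.09) and Phf11d (0.09). Cd36 was at 349.0, 812.0 and 409.7 RPKM in the infant and 1084.1, 1093.0 and 923.8 RPKM in young adult replicates, with infant replicate 2 between the groups as for S1pr1. For S1pr3 they were Slc22a23 (0.17), Dcbld1 (0.17) and Sirpa (0.17). Sirpa was at 39.3, 55.4 and 41.5 RPKM and at 16.4, 19.3 and 29.8 RPKM, highest in infant replicate 2 as S1pr3 was. These likenesses rest on 6 libraries that share age group, sex and scaling.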

How the data were processed

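RNA-seq of sorted mouse lung EC was analysed in 6 libraries (infant n = 3, young adult n = 3), grouped by library title. According to their methods, the authors had RNA amplified with the SMARTer Ultra Low kit and sequenced on a HiSeq2000, and the authors aligned reads to mm10 with STAR and tested counts on RefSeq with DESeq2. Tool versions were not given in the sources used here. The deposited values were RPKM computed by the authors, 1 row per RefSeq transcript (17241 rows), rounded to 1 decimal. Because RPKM divides by the library's mapped reads, abundant globin transcripts (0.307% to 23.5% of the RPKM total over genes) lower all other values in a library. The study states an average transcriptome coverage, but read numbers per library are unknown, so single values carry no counting error here.

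From these values, 24 rows whose symbols had become dates were restored by accession, and the transcript row with the highest mean was kept for each gene (2842 genes had several). The 12458 genes that reached 1 RPKM in any library were tested with limma 3.58.1 in R 4.3.3 (lmFit, eBayes with trend) on log2(RPKM + 1), with only the age group in the model and p-values adjusted over all of them (Benjamini-Hochberg). Fold changes of low genes are understated on this scale. A gene was called at an adjusted p under 0.05 and a log2 fold change over 0.81 in size, the fold threshold of the study. Ratios were compared with exact permutation tests. In simulated data, 93.5% of 200 genes changed by 1.5 (log2) among 12458 were recovered, with 5 false calls. The changed genes were drawn from those above a minimum level, and errors were independent between genes. The recovered share therefore does not describe smaller changes, such as those of the members, or genes at low levels.

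Members and lists were chosen with earlier results of these data known. Named genes are all members, every called gene of the wider list, and its S1P and LPA receptor, S1P phosphatase, exporter and LPA production genes. Other genes of that list are named where the text says that they were chosen after their values were seen. Marker genes, Y-linked genes and the genes nearest in profile are named besides. Gene positions and sequences are from RefSeq on GRCm38.p6, which shares the coordinates of mm10. Alternatives comprised other pseudocounts, filters, scalings, variance models, thresholds and transcript summaries, a replicate block and leaving out each library.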

Additional observations from a re-analysis of the deposited data

How the results depend on the processing

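Over all genes 1424 were called, 2 of them members and 10 of them on the wider list. With a pseudocount of 5 the counts were 578, 1 (S1pr1) and 3 (S1pr1, Acer2 and Lpar1). After quantile normalization they were 1142, 1 (S1pr3) and 3 (S1pr3, Acer2 and Lpar1), and 532 genes were called higher and 610 lower, in place of 415 and 1009. Lpar4, Degs2 and Gnai1, called in all 6 fits without 1 library, were called in neither of these settings. With no fold threshold they were 3178, 3 and 23, and over 2-fold they were 1036, 0 and 6. Leaving out 1 library gave 846 to 1874, 0 to 2 and 5 to 12. The infant replicates 1, 2 and 3 left out in turn gave 926, 1 and 6, then 1874, 2 and 12, then 949, 0 and 5, and the young adult replicates 1, 2 and 3 gave 846, 0 and 5, then 867, 0 and 5, then 1226, 1 and 7.

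Across the 19 alternatives fitted over all genes no member changed direction. S1pr1 ran from 0.79 to 1.31 (log2) and lost its call in 6 of them, and S1pr3 ran from -1.14 to -0.67 and lost it in 5. Sgpl1 and Sgms1 gained a call without infant replicate 2 and with array weights (-0.83 and 1.65), Acer3 and Kdsr without infant replicate 2, and S1pr2 with a pseudocount of 0.1. The direction turned for Sgpp1, to 0.21 after quantile normalization, 0.0035 with array weights, 0.077 without infant replicate 2 and 0.00081 when young adult replicate 2 was left out (-0.13 to 0.077 over the 6 fits without 1 library), for Ppap2c, to -0.013 when rescaled without the globin genes, -0.038 with array weights, -0.048 without infant replicate 2 and -0.15 when young adult replicate 1 was left out (-0.15 to 0.16 over those 6 fits), and for Liph, to 0.16 after quantile normalization, all far from the threshold. In the fits without 1 library the direction also turned for genes of the wider list not named elsewhere. Among them were Cerk (-0.06 to 0.22), Gnaq (-0.06 to 0.12), Smpd2 (-0.20 to 0.03) and Smpd4 (-0.003 to 0.14). The difference in the S1pr1 to S1pr3 ratio was 2.10 and 1.63 with pseudocounts of 0.1 and 5 and 1.74 to 2.14 without 1 library, and that in the Ppap2a to Ppap2b ratio was 1.01, 0.96 and 0.88 to 1.23. The cause of the changes was not tested. The ratio of Sphk1 to Sphk2 was planned and not run.

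Deviations of same-numbered libraries from their group means correlated at 0.03, -0.11 and -0.02. These values showed no pairing by number, but with 3 libraries in each group they cannot exclude it. With the replicate number as a block, 1371 genes, 2 members and 9 genes of the wider list were called. Sgpp2 lost its call (adjusted p 0.0734), and the adjusted p, under 0.05 without the block, was 0.0709 for Ppap2b, 0.0572 for S1pr4, 0.0740 for Pld2, 0.0503 for Asah1, 0.0637 for Ormdl1 and 0.0867 for Arrb2. Values near 1 RPKM carry a rounding step of 0.1, which limits S1pr2, Cers6, Sgms2 and the young adult values of Lpar1 and Lpar4.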
